A study of Mus musculus with 6 samples.

Results

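The 10 genes described here mark resident macrophages or take part in efferocytosis, the engulfment of dead cells, and they were picked by symbol from the 54532 genes of the deposited table. They are *Mertk*, *Axl*, *Gas6*, *Mfge8*, *Timd4*, *Folr2*, *Cd163*, *Stab1*, *Trem2* and *Gpnmb*. Each symbol matched 1 row. RNA sequencing was performed on infarcted hearts of 3 WT and 3 *Crlf2*-/- (TSLPR KO) mice. All had ligation of the left anterior descending coronary artery and were sampled on day 7 post-MI. The paper says that peri-infarcted and infarcted tissue was collected, and it does not give the share of each per library. No sham hearts were sequenced in these samples, so each difference is between 2 groups of infarcted hearts. The strain is C57BL/6 in the labels and C57BL/6J in the study's methods. By those methods the C57BL/6J mice were male and purchased, and another company made the knockout line. The sex of the knockout mice and whether the sequenced WT mice were littermates are not given in the sources used here, so genotype and source cannot be told apart. The paper gives as many mice as libraries in each group, and the labels do not mention pooling.

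The knocked-out gene, *Crlf2*, codes for the TSLP-binding chain of TSLPR. Its level was 26.6, 25.1 and 21.6 FPKM in the WT libraries and 13.2, 18.7 and 19.8 FPKM in the *Crlf2*-/- libraries. FPKM is the number of sequenced fragments of a gene, scaled to its exon length and to the mapped reads of the library. The groups did not overlap, but transcript of the gene remained in every *Crlf2*-/- library, and the log2 fold change of -0.52 ± 0.17 (SE) did not pass the test after adjustment (limma, adjusted p = 0.521). A value over the whole gene counts fragments from outside a deleted stretch as well, so it is a limited check of the genotype. The libraries held 18508646 to 19682428 fragments on genes.

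After infarction, macrophages clear dead cardiomyocytes and neutrophils from the heart. In efferocytosis, bridging proteins such as Gas6 and Mfge8 bind phosphatidylserine on the dying cell and hand it to receptors on the phagocyte, among them the TAM kinases Axl and Mertk. Timd4, Folr2, Cd163 and Stab1 are surface proteins known from long-lived resident macrophages, and Trem2 and Gpnmb are known from macrophages loaded with lipid.

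None of the genes passed the test between genotypes. *Mertk* was the single one whose 3 *Crlf2*-/- values all lay below the 3 WT values, a pattern in 6.45% of all tested genes. The levels of the 10 genes ran from about 197.5 FPKM for *Gas6* down to 0.270 FPKM for *Timd4* (means of 6 libraries).

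The promoters of *Trem2* and *Gpnmb* are shown because these lipid-associated genes had their highest value in the same library and their lowest in the same library. *Gas6* and *Mfge8* shared their extreme libraries too, and their promoters are not shown. The pattern of *Trem2* and *Gpnmb*, with WT replicate 1 highest and WT replicate 3 lowest, was not particular to them. For 22 lipid-associated macrophage genes the median log2 deviation from each gene's mean was 0.39 and -0.28 in these libraries. For 12 general macrophage genes it was 0.29 and -0.28. A link of the pattern to promoter sequence was not tested. The sequences are the 250 bases before the RefSeq start on GRCm38.p6, read 5′ to 3′ on the strand of the gene. Capitals mark GAGGAA or its reverse complement, the core bound by the myeloid factor PU.1.

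*Trem2*, chr17:48346151-48346400, plus strand: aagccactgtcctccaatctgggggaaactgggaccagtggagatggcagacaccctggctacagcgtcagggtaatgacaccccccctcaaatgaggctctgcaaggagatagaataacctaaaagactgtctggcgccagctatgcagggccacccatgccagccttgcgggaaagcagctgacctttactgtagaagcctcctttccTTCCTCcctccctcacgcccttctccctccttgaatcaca

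*Gpnmb*, chr6:49036268-49036517, plus strand: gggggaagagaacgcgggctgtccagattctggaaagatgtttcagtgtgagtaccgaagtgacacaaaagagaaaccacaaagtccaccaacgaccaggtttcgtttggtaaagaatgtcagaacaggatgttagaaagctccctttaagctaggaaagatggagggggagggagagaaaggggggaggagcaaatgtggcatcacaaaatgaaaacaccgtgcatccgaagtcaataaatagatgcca

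GAGGAA was found in the *Trem2* window, with its first base 40 bases before the start, and not in the *Gpnmb* window. It was also in the windows of *Axl*, *Mfge8* and *Stab1*. Over all 32851 promoter windows, 23.25% held it on either strand. TGACTCA, the AP-1 motif, was in 1 window of *Folr2* and in 4.46% of all windows. CACATG was in the windows of *Timd4*, *Folr2* and *Stab1* and in 12.25% of all windows. CACGTG was in none of the members' windows and in 6.02% of all. None of the matches is a measured binding site.

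Both TAM receptors were present in every library, and *Axl* was several times higher than *Mertk*. *Mertk* (ENSMUSG00000014361, chr2:128698956-128802894, plus strand), the receptor tyrosine kinase best known for clearance of dead cells, was at 16.5, 11.5 and 11.9 FPKM in WT and 11.2, 10.99 and 10.03 FPKM in *Crlf2*-/- hearts. The groups did not overlap, and the gap between them was narrow, since only WT replicate 1 stood well above the rest. The mean was 13.3 ± 2.79 FPKM in WT and 10.8 ± 0.637 FPKM in *Crlf2*-/- hearts (SD, n = 3), resting on 980 to 1647 fragments per library. The log2 fold change of -0.28 ± 0.15 (SE) had a 95% confidence interval from -0.63 to 0.07 and did not pass the test (limma, adjusted p = 0.851). Without WT replicate 1 it was -0.11. The exact permutation test of the 3 against 3 values gave p = 0.1 (two-sided), the smallest that this design allows.

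*Axl* (ENSMUSG00000002602, chr7:25757273-25788705, minus strand) is the TAM receptor that needs Gas6 as its ligand. It was at 73.0, 80.7 and 79.6 FPKM in WT and 87.8, 80.6 and 92.4 FPKM in *Crlf2*-/- hearts. The groups overlapped at the lowest *Crlf2*-/- library. *Axl* had a log2 fold change of 0.16 ± 0.11 (95% interval -0.09 to 0.42, limma, adjusted p = 0.924). The ratio of *Axl* to *Mertk* FPKM, examined after the values had been seen, was 4.42, 7.04 and 6.69 in WT and 7.82, 7.33 and 9.22 in *Crlf2*-/- hearts. These ratios did not overlap between groups (exact permutation test, p = 0.1, two-sided). *Mertk* by itself already had all *Crlf2*-/- values below WT, so the ratio adds little to it. Ratios of *Gpnmb* to *Trem2* and of *Gas6* to *Mfge8*, examined in the same way, overlapped (exact permutation test, p = 0.6 and 0.7, two-sided). *Tyro3*, the third TAM receptor, was lower, at 4.28 ± 0.688 and 4.41 ± 0.262 FPKM (SD, n = 3) in WT and *Crlf2*-/- hearts.

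The bridging ligands had the fold changes nearest to 0. *Gas6* (ENSMUSG00000031451, chr8:13465374-13494490, minus strand) had the highest level of the 10 genes, at 184.6, 200 and 210.7 FPKM in WT and 155.5, 227.3 and 206.7 FPKM in *Crlf2*-/- hearts. The *Crlf2*-/- libraries held both its lowest and its highest value. Its log2 fold change was -0.03 ± 0.16 (95% interval -0.39 to 0.34, limma, adjusted p = 0.996). *Mfge8* (ENSMUSG00000030605, chr7:79133768-79149060, minus strand), which links phosphatidylserine to integrins, was at 77.0, 84.1 and 78.9 FPKM in WT and 72.8, 89.6 and 82.2 FPKM in *Crlf2*-/- hearts. As for *Gas6*, *Crlf2*-/- replicate 1 was lowest and replicate 2 highest. Its log2 fold change was 0.03 ± 0.12 (95% interval -0.24 to 0.29, limma, adjusted p = 0.996). *Pros1*, the other TAM ligand, was at 30.4 ± 1.78 FPKM in WT and 28.6 ± 1.86 FPKM in *Crlf2*-/- hearts (SD, n = 3).

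Among receptors of resident macrophages, *Stab1* was abundant and *Timd4* was barely detected. *Timd4* (ENSMUSG00000055546, chr11:46810800-46844332, plus strand), a phosphatidylserine receptor, had 4, 7 and 29 fragments in WT and 26, 7 and 5 fragments in *Crlf2*-/- libraries. One library in each group carried most of them, and the gene did not reach the minimum for testing (10 fragments in at least 3 libraries). Its level was 0.0799, 0.149 and 0.610 FPKM in WT and 0.539, 0.138 and 0.102 FPKM in *Crlf2*-/- hearts (exact permutation test, p = 0.8, two-sided).

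*Folr2* (ENSMUSG00000032725, chr7:101839988-101857194, minus strand), a folate receptor, was at 3.12, 2 and 2.19 FPKM in WT and 3.62, 3.24 and 2.32 FPKM in *Crlf2*-/- hearts. The groups overlapped, since WT replicate 1 lay among the *Crlf2*-/- values. For *Folr2* the log2 fold change was 0.32 ± 0.22 (95% interval -0.18 to 0.83, limma, adjusted p = 0.924), on 67 to 124 fragments per library. Without WT replicate 1 it was 0.51, with an unadjusted p of 0.0409 (limma), the smallest of any member in any fit.

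*Cd163* (ENSMUSG00000008845, chr6:124304656-124330527, plus strand), the scavenger receptor for haemoglobin bound to haptoglobin, was at 1.51, 1.61 and 1.94 FPKM in WT and 2.06, 1.91 and 0.861 FPKM in *Crlf2*-/- hearts. *Crlf2*-/- replicate 3 stood below the other 5 libraries. For *Cd163* the log2 fold change was -0.14 ± 0.30 (95% interval -0.84 to 0.55, limma, adjusted p = 0.996) and was 0.23 without that library. *Vsig4*, a complement receptor of resident macrophages, had the pattern most like it over the 6 libraries (Pearson r = 0.996 among 12129 genes of at least 1 FPKM, on log2 values, as a description). It was at 0.761, 0.840 and 1.48 FPKM in WT and 1.52, 1.21 and 0.209 FPKM in *Crlf2*-/- hearts. *Crlf2*-/- replicate 3 had the lowest value of 9 of 22 resident macrophage genes, among them *Maf*, *Cbr2*, *F13a1* and *Selenop*, and replicate 1 the highest of 7.

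*Stab1* (ENSMUSG00000042286, chr14:31139013-31168641, minus strand), a scavenger receptor that also binds phosphatidylserine, was at 38.2, 32.0 and 32.4 FPKM in WT and 31.8, 28.0 and 35.2 FPKM in *Crlf2*-/- hearts. The groups overlapped. *Stab1* had a log2 fold change of -0.11 ± 0.13 (95% interval -0.40 to 0.19, limma, adjusted p = 0.988). The gene overlaps *Nt5dc2* on the opposite strand, which reached 29.2 FPKM, and whether counting used strand is not given in the sources used here, so fragments of both cannot be told apart where they overlap.

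*Trem2* and *Gpnmb* varied more between WT libraries than between genotypes. *Trem2* (ENSMUSG00000023992, chr17:48346401-48354147, plus strand), a lipid-sensing receptor, was at 39.0, 27.9 and 22.3 FPKM in WT and 30.4, 31.9 and 27.3 FPKM in *Crlf2*-/- hearts. All 3 *Crlf2*-/- values lay inside the WT range. The log2 fold change was 0.05 ± 0.19 (95% interval -0.40 to 0.49, limma, adjusted p = 0.996). *Gpnmb* (ENSMUSG00000029816, chr6:49036546-49070929, plus strand), a glycoprotein of phagosomes and lysosomes, was at 129.1, 80.8 and 64.6 FPKM in WT and 107.4, 74.2 and 65.2 FPKM in *Crlf2*-/- hearts. Its log2 fold change was -0.12 ± 0.28 (95% interval -0.77 to 0.52, limma, adjusted p = 0.996). In both genes WT replicate 1 was highest and WT replicate 3 lowest. *Cd68*, a lysosomal macrophage protein, had the same WT order, at 226.3, 154.4 and 135.0 FPKM in WT and 214.4, 173.5 and 147.9 FPKM in *Crlf2*-/- hearts. *Spp1*, which encodes osteopontin, reached 1127 FPKM in WT replicate 1 and was 358.6 to 922.6 FPKM in the others. The genes most like *Gpnmb* were *Nup107* (r = 0.996) and *Psap* (r = 0.986), which encodes the precursor of lysosomal saposins, and those most like *Trem2* were *Cd300c2* (r = 0.995) and *Blvra* (r = 0.994).

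**Figure D1:**
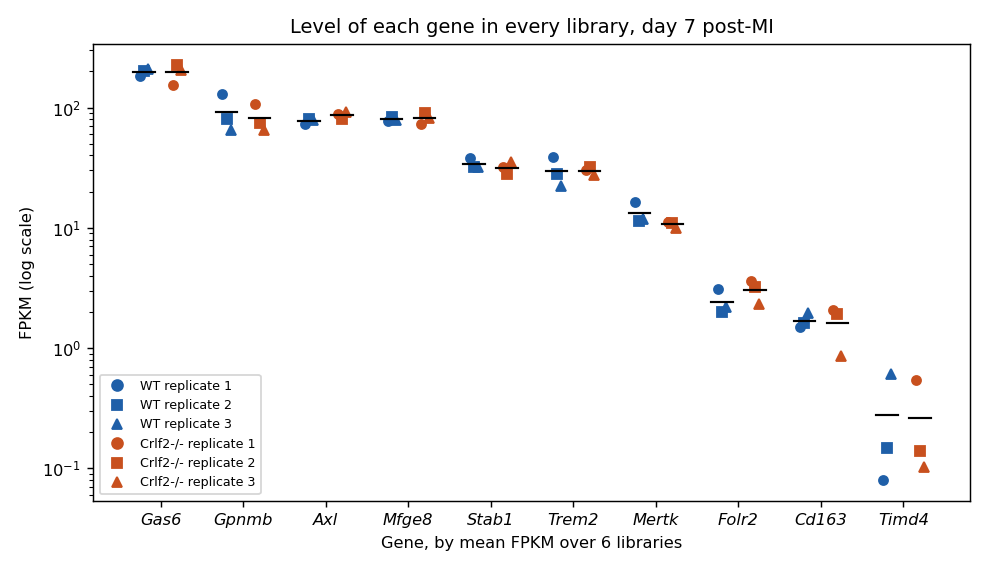
FPKM of each gene (log axis) in the 3 WT and 3 *Crlf2*-/- libraries, with the group mean as a bar and the replicate as the marker shape. Levels span 0.0799 to 227.3 FPKM, and the 2 groups are apart in *Mertk* alone. Of all tested genes, 6.45% have all *Crlf2*-/- values below WT.

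The order of levels was the same in large steps in every library. *Gas6* was above *Gpnmb*, *Axl* and *Mfge8*, at means of 86.9, 82.35 and 80.8 FPKM, whose ranges overlapped. *Stab1* (33.0 FPKM) and *Trem2* (29.8 FPKM) followed, and *Stab1* was the higher in 4 of 6 libraries. *Mertk* (12.0 FPKM) was separate from both neighbours. *Folr2* (2.75 FPKM) was above *Cd163* (1.65 FPKM) in 6 of 6 libraries although their ranges overlapped.

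Of 9 members tested, 0 were called different, against 0.0129% of the 15520 genes tested (limma, adjusted p of at most 0.05 and absolute log2 fold change of at least 0.5). Since that share is only 2 genes, a count of 0 among 9 members says little about them. At an unadjusted p under 0.05, 0 members were higher and 0 lower, against 3.22% and 3.36% of all genes. *Mertk* was the 1 member with all *Crlf2*-/- values below WT, a pattern in 6.45% of all genes, and 0 members had all of them above WT, a pattern in 5.24%. The members' median log2 fold change was -0.03, with 4 above 0 and 5 below, and the median of all genes was near 0. For 5 of the 9 members the whole 95% interval lay within 0.5 of 0 on the log2 scale, and for the other 4, *Mertk*, *Folr2*, *Cd163* and *Gpnmb*, it reached past that size. In unsorted tissue, fewer cells of a type and less RNA per cell cannot be told apart.

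**Figure D2:**
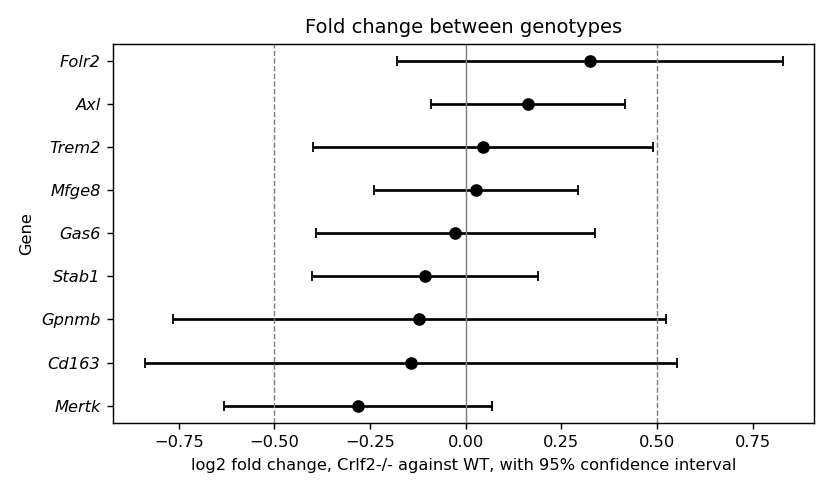
The log2 fold change (*Crlf2*-/- against WT, limma, 3 libraries per group) is a point and its 95% confidence interval a bar, with dashed lines at an absolute log2 fold change of 0.5. All 9 intervals include 0.

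The genes whose log2 level followed each remaining member most closely over the 6 libraries are given as a description, since with so few libraries high values of r are common among 12129 genes. For *Mertk* they were *Zfp597* (r = 0.986) and *Snx16* (r = 0.972), and for *Axl* *Gm4841* (r = 0.987) and then *Shpk*. *Gas6* was followed by *Otud1* (r = 0.994) and *Batf3* (r = 0.986), and *Mfge8* by *Rgcc* (r = 0.998) and *Yju2* (r = 0.990). One of the genes closest to *Folr2* was *D430020J02Rik* (r = 0.988). *Stab1* was followed by *Gm11847* (r = 0.990) and *Amz1* (r = 0.977), and the second gene for *Cd163* was *AU020206* (r = 0.978). No member was among another member's closest 2 genes.

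Relative to general macrophage genes, *Mertk* was again the member whose groups did not overlap. Each level was set against the mean log2 level of 5 general macrophage genes, *Csf1r*, *Adgre1*, *Cd68*, *Fcgr1* and *Lyz2*, in its library. This is a scale of RNA, not of macrophage number. That mean was 7.46, 7.07 and 6.89 in WT and 7.36, 7.35 and 7.13 in *Crlf2*-/- hearts, with overlap. On this scale *Mertk* was at -3.40, -3.56 and -3.31 in WT and -3.85, -3.88 and -3.79 in *Crlf2*-/- hearts. WT replicate 1, which stood apart in FPKM, was inside the WT range here. The difference of -0.42 (exact permutation test, p = 0.1, two-sided) did not pass the test across all genes (limma, adjusted p = 0.982, 95% interval -0.84 to 0.0014). Of all genes, 5.48% had all *Crlf2*-/- values below WT on this scale. Of the 9 members 0 were called, against 0.187% of all genes. The difference was -0.42 with *Csf1r* alone as the reference, and -0.31 without *Fcgr1*, which was itself higher at an unadjusted p under 0.05. *Csf1r* also had all its *Crlf2*-/- values (84.0 to 88.3 FPKM) above WT (76.6 to 82.1 FPKM), a pattern in 5.24% of all genes. The mean of the 5 reference genes was 0.14 higher in *Crlf2*-/- hearts, and this is part of the *Mertk* difference of -0.42. The *Mertk* groups stayed apart with both of these references, which reuse the same *Mertk* values.

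**Figure D3:**
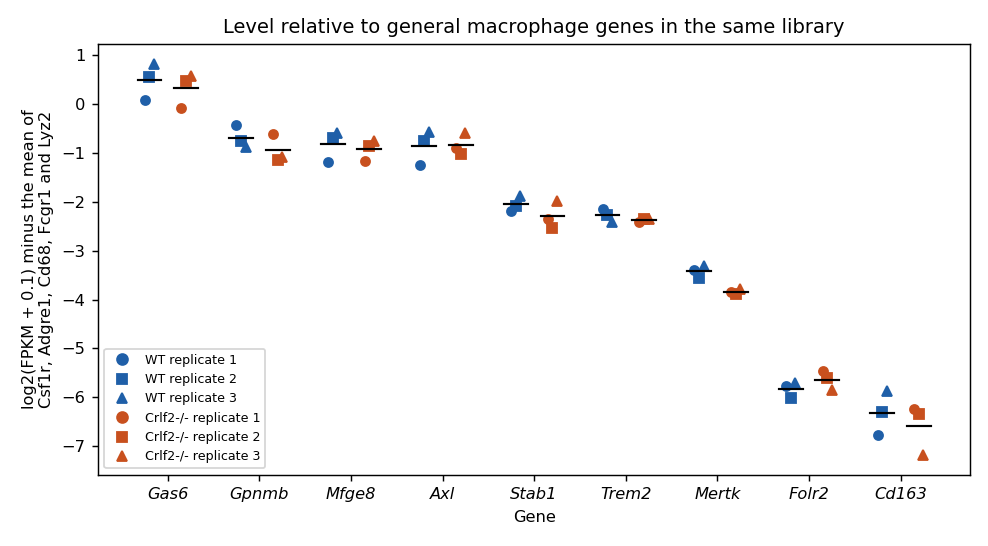
Each gene's log2(FPKM + 0.1) minus the mean of 5 general macrophage genes in the same library, with the group mean as a bar. The *Mertk* values are -3.56 to -3.31 in WT and -3.88 to -3.79 in *Crlf2*-/- hearts, and the groups of the other 8 genes overlap. On this scale 5.48% of all tested genes have all *Crlf2*-/- values below WT.

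In the pathways around these genes, no gene was called different. Of 29 tested genes of the efferocytosis machinery, 0 were called, 0 were higher and 1 was lower at an unadjusted p under 0.05, with a median log2 fold change of 0.005. That gene was *Cd36*, a scavenger receptor for oxidised lipid and apoptotic cells, at 84.8 ± 7.03 FPKM in WT and 65.5 ± 8.10 FPKM in *Crlf2*-/- hearts (SD, n = 3), with a log2 fold change of -0.37 (limma, adjusted p = 0.619). Which cells the *Cd36* RNA came from was not tested. *Thbs1* (0.52), *Cd300lf* (0.44) and *Megf10* (0.37) came next by p, and these log2 fold changes did not pass. Of 16 genes that handle engulfed lipid, 1 was higher and 2 were lower at an unadjusted p under 0.05, and 0 were called. They were the glucose transporter gene *Slc2a1* (0.44), and *Mylip* (-0.24) and *Rxra* (-0.23), a target and a partner of the liver X receptors. The log2 fold change of *Nr1h3*, which encodes one of those receptors, was -0.21 and did not pass.

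Of 20 tested resident macrophage genes, 1 was higher and 1 lower at an unadjusted p under 0.05, and 0 were called. *Siglec1*, a sialic acid receptor that interferon is known to raise, was at 6.51, 4.08 and 6.53 FPKM in WT and 11.3, 10.8 and 12.5 FPKM in *Crlf2*-/- hearts. The groups did not overlap, and its log2 fold change was 1.03 (limma, adjusted p = 0.150). *Hpgd*, the enzyme that inactivates prostaglandins, was at 8.89 ± 1.34 FPKM in WT and 5.27 ± 0.343 FPKM in *Crlf2*-/- hearts (SD, n = 3), a log2 fold change of -0.73 (limma, adjusted p = 0.150). *Igf1* (0.23) did not pass, and *Lyve1* was at 3.32 ± 1.42 and 2.20 ± 0.260 FPKM (SD, n = 3). The list's median was 0.12.

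Of 22 lipid-associated macrophage genes, 0 were higher and 1 was lower at an unadjusted p under 0.05. This was *Lpl*, lipoprotein lipase, at 44.4 ± 4.38 FPKM in WT and 31.3 ± 3.63 FPKM in *Crlf2*-/- hearts (SD, n = 3), with a log2 fold change of -0.50 (limma, adjusted p = 0.331). Here too the cells that the *Lpl* RNA came from were not tested. *Grn* (0.33), *Cd9* (-0.24) and *Atp6v0d2* (-0.53) did not pass. The median of the list was -0.04.

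Other cell types were measured in the same libraries, and their part in the members' values was not tested. Of 12 general macrophage genes, *Fcgr1* alone was higher at an unadjusted p under 0.05 (0.58 on the log2 scale), *Csf1r* was at 79.1 ± 2.81 and 86.8 ± 2.39 FPKM and *Adgre1* at 95.9 ± 13.5 and 96.6 ± 4.82 FPKM (WT and *Crlf2*-/-, SD, n = 3). Of 12 recruited monocyte genes, 5 were higher and 1 lower at that p, led by *Plac8* (0.52) and *Ms4a4c* (1.08). *Ms4a4c* was at 8.53, 7.04 and 7.91 FPKM in WT and 10.7, 27.4 and 15.5 FPKM in *Crlf2*-/- hearts. The lower gene was *Hp* (-1.01), at 39.2 ± 19.0 and 17.7 ± 3.82 FPKM, named after its values were seen. The median log2 fold change of the 12 recruited monocyte genes was 0.28, with 11 above 0. *Ccr2* was at 17.3 ± 2.73 and 18.4 ± 2.43 FPKM. The summed level of the recruited monocyte genes was 656.9 to 1076 FPKM in WT and 830.9 to 1016 FPKM in *Crlf2*-/- hearts. Most of that sum was *Fn1*, which encodes fibronectin and which fibroblasts also make (502.7 to 947.5 and 647.3 to 856.6 FPKM, named after its values were seen). Without it the sum was 128.7 to 154.2 FPKM in WT and 142.7 to 183.5 FPKM in *Crlf2*-/- hearts. All 9 cardiomyocyte genes had log2 fold changes below 0, and 3 were lower at an unadjusted p under 0.05, including *Myl2* (-1.34) and *Tnni3* (-1.34). The sum of the 9 was 1312 to 2368 FPKM in WT and 912 to 1662 FPKM in *Crlf2*-/- hearts. All 5 red blood cell genes were lower, led by *Hba-a2* (-1.20) and *Hbb-bt* (-1.33). Endothelial genes had 7 of 9 log2 fold changes below 0, and 2 were lower at that p (*Fabp4*, -0.69, and *Tek*, -0.32). Fibroblast genes had 1 lower of 9 at that p (*Tcf21*, -0.44, with *Col1a1* next at 0.25). Smooth muscle genes had 1 higher of 9 (*Acta2*, 0.34, with *Kcnj8* next at 0.22). Of 6 tested neutrophil genes 0 passed, with *Csf3r* (0.22) and *S100a8* (0.44) first by p. In these lists 0 genes were called after adjustment.

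**Figure D4:**
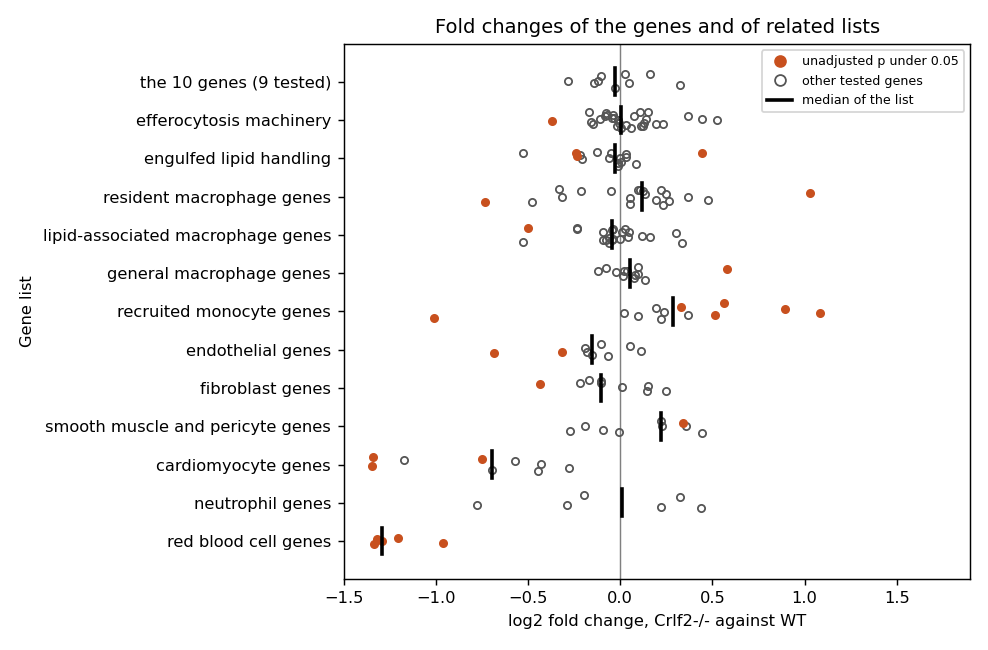
Each point is the log2 fold change of a tested gene (*Crlf2*-/- against WT), filled where the unadjusted p was under 0.05, and the vertical bar is the median of the list. The 9 tested members sit between -0.28 and 0.32, while red blood cell genes have a median of -1.29 and cardiomyocyte genes one of -0.69.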

How the data were processed

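RNA sequencing of peri-infarcted and infarcted heart tissue was measured in 3 WT and 3 TSLPR KO libraries, grouped by the genotype label. The extraction protocol in the labels speaks of retina, whereas the tissue label and the paper say heart, which was followed. The authors trimmed reads, aligned them with HISAT2 2.0.5, counted fragments with featureCounts and deposited FPKM per gene. The processing notes name hg38 and mm10, and the 10 genes have the positions of GENCODE M21 on GRCm38. The table held 0 columns of other samples.

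FPKM times exon length gave whole fragments for 100% of nonzero values (within 0.05 of a whole number), and these set the filter (10 fragments in at least 3 libraries and 15 in all) and trimmed-mean scaling. log2(FPKM + 0.1) was tested with limma 3.58.1 (trend, robust, Benjamini-Hochberg adjustment over 15520 genes). Fold changes on this scale understate changes of low genes. Printed levels are as deposited. The steps were tested on simulated data. R 4.3.3, Python 3.11.15 and scipy 1.17.1 were used. P-values measure the spread between these libraries.

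Named were the 10 genes, the 4 smallest p of each pathway list, the 2 smallest of each cell type list, *Crlf2*, 8 further genes, and the most alike genes. Results that need an item withheld for evaluation are not reported here. Further genes named from the resident list and the ratios of members were chosen after their values were seen. The members and the 12 lists were chosen with earlier results of these data known. Alternatives were the pseudocount, scaling, filter, replicate block, voom, the reference genes and leaving out each library.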

Additional observations from a re-analysis of the deposited data

How the results depend on the processing

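No member was called in any of 126 fits of a member (other settings and leaving out each library), where the smallest adjusted p was 0.706. Under the replicate block 0 members were called. Same-numbered libraries had deviations correlated at -0.0163, 0.115 and 0.12. Differently numbered libraries were not compared, so these values cannot decide whether the numbers pair the libraries. The main test took them as unpaired. At an unadjusted p under 0.05 the replicate block gave 3 efferocytosis, 2 lipid-associated, 2 smooth muscle and 7 cardiomyocyte genes, voom 3 and 2 of the first 2 lists, and no filter 1 neutrophil gene. Over all genes, 2 were called, 6 without the filter, 4 with the block, 3 with voom and 1 to 14 leaving out a library (14 without KO replicate 1, 5 without WT replicate 3). Leaving out each library gave 0 to 1 members, 0 to 2 efferocytosis, 1 to 4 lipid handling, 2 to 6 resident, 1 to 3 lipid-associated, 0 to 1 general macrophage, 3 to 7 monocyte, 1 to 2 endothelial, 0 to 1 fibroblast, 0 to 3 smooth muscle, 1 to 7 cardiomyocyte and 0 to 1 neutrophil genes at that p, and a members' median of -0.044 to 0.029. It turned the direction of *Gas6* (-0.14 to 0.13), *Mfge8* (-0.040 to 0.10), *Cd163* (-0.36 to 0.23), *Trem2* (-0.14 to 0.26) and *Gpnmb* (-0.34 to 0.16). Relative to general macrophage genes, an alternative chosen after seeing the data, *Mfge8* was -0.11 and *Trem2* -0.093. That fit was first run without the abundance trend of limma's prior variance and then with it, as the main test has it, after the first result had been seen. With the trend 29 genes were called over all and the unadjusted p of *Mertk* was 0.0507, and without it 1 gene and 0.0701. *Mertk* was not called in either. The causes were not tested. With 3 libraries per group, changes smaller than the intervals given could not be seen. The intervals are not adjusted for the number of genes tested, so larger changes could be missed as well. The log2 fold change of *Siglec1* was 1.03, with an interval from 0.60 to 1.46. It was not called after adjustment (limma, adjusted p = 0.150).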
